A study of Mus musculus with 12 samples.

Results

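The cytosolic ribosomal protein genes encode the proteins that, together with ribosomal RNA, build the large and small subunits of the ribosome. They were taken by symbol, as every Rpl or Rps gene with a plain number (with an a, l, x or similar ending) together with Rplp0, Rplp1, Rplp2 and Rpsa, leaving out names that mark pseudogenes and the Rps6 kinases. This gave 85 genes of the 24906 in each expression table, 52 of the large subunit and 33 of the small subunit. Most of these proteins are present in 1 copy per ribosome, and cells keep their mRNAs at high and closely matched levels. In vertebrates the mRNAs share a run of pyrimidines at the 5′ end, which links their translation to mTOR signaling, and MYC is a known activator of many of the genes. In RNA-Seq of growing cells they usually take a large part of the reads.

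The RNA-Seq data were from 12 libraries of mouse tumor organoids, labelled small intestine, of the genotype Smad4KO;BRAFV600E/+;pINDUCER-SMAD4. Loss of Smad4 and activation of BRAF were driven by tamoxifen through Villin-CreERT2, which acts in the intestinal epithelium, and by their labels all groups shared these alleles and the lentiviral construct that returns SMAD4 under doxycycline (dox). In Cultrex BME R1, a basement membrane extract for 3D culture, untreated organoids of lines 682, 700 and 889 were compared with organoids of lines 700 and 889 given 4 µg/mL dox for 48 h. Line 682 also gave a library whose treatment label reads 4 µg/mL dox with the word mock, and whose title names dox. It carries the same genotype label as the rest. The study's methods use the word mock for a plasmid used in place of pINDUCER-SMAD4 when organoids were transduced, so this library may lack the SMAD4 construct that its genotype label names. It was counted as a control that, per its label, had received the drug. On tissue culture plastic, untreated and dox organoids of lines 560, 700 and 889 were compared. Each number names 1 organoid line, with 1 library per treatment and environment. Values are FPKM, fragments scaled to transcript length and library size, and the BME and plastic tables were scaled separately, so levels were not compared between them.

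Smad4, the restored gene, was higher in all 5 dox pairs. In BME its FPKM was 6.53 in untreated and 17.2 in dox organoids of line 700, and 6.23 and 27.3 in line 889. In the mock library of line 682 it was 10.3 against 8.88 in its untreated partner. On plastic it went from 1.54 to 73.6 in line 560, from 2.99 to 18.1 in line 700 and from 4.76 to 48.9 in line 889. Libraries held between 14530986 and 21065831 reads as rebuilt from the FPKM values, and every ribosomal protein gene kept below had at least 322 reads in each library. Epcam, Vil1 and keratin transcripts of the epithelium were present in all libraries. The summed FPKM of 6 epithelial markers was 7430 to 9442 in dox against 3817 to 4808 in control libraries in BME, and 11550 to 17160 against 12980 to 14110 on plastic, and the part of this in the family's values was not tested. The summed FPKM of 6 fibroblast markers never passed 5.41 and that of 4 endothelial markers never passed 3.65. The sum of 6 immune markers ran from 6.28 to 17.3 in BME and from 2.71 to 38.9 on plastic. Nearly all of the highest sum was Cd68, a macrophage lysosomal protein, which went from 2.70 to 38.7 FPKM with dox in plastic line 889, while Adgre1 was listed at 0 in every library and Cd3e in every plastic library.

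Both subunits were expressed at very high levels. A mean FPKM of at least 0.5 was reached by 80 of the 85 genes in each table. In BME the median of these 80 was 1524 FPKM, against 11.9 for all 12996 genes kept, and 59 of them were among the 100 most abundant genes. On plastic the median was 981 FPKM against 10.4 for the 12333 genes kept, and 42 were among the top 100. The 3 highest were the same in both tables: Rps26, a protein of the mRNA exit channel, Rplp1, an acidic protein of the stalk, and Rpl41, the smallest ribosomal protein. Rps26 was at 5359 FPKM in untreated line 889, 6275 in untreated line 700 and 7008 in untreated line 682 in BME, 5191 in mock dox, and 6140 and 4684 in dox lines 700 and 889. These ranges overlapped between dox and control libraries.

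The 5 genes below the filter were Rpl3l, Rpl10l, Rpl32l, Rpl39l and Rps4l. Rpl3l is the muscle form of Rpl3, and Rpl10l and Rpl39l are best known from testis. Rpl3l was listed between 0 and 0.155 FPKM in the BME libraries, while its parent Rpl3 was at 1036 to 1688. Rpl39l was between 0 and 0.288 in BME, where Rpl39 was at 871 to 1398. Rpl10l was listed at 0 in every BME library and at no more than 0.0522 on plastic. Of the divergent copies, 3 were clearly expressed: Rpl22l1, Rps27l and Rpl7l1. Rpl22l1 reached 140 to 293 FPKM in BME, Rps27l, known as a p53 target, 237 to 295, and Rpl7l1, which is placed in ribosome assembly, 31.9 to 42.8.

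The order of levels depended in part on the length by which reads were divided. The effective length implied by the table was a median of 555 nt over the 80 genes in BME, against 2493 nt over all genes kept, and 63 of the 80 were under 1000 nt. Rps15a was among the lowest at 59.1 to 92.8 FPKM in BME, but its reads were divided by 5011 nt where its coding part has 393 nt. Rps20 had an effective length of 3287 nt for 360 coding nt, and its FPKM was 182 to 284. Rpl22, at 2037 nt, was low by the same measure. Rpl7l1, at 2442 nt, was low in reads as well, with 1130 to 1728 per BME library. Rps15a had 4512 to 7310 reads there and Rps20 had 9988 to 14679. The length was taken as 1 value per gene over the 6 libraries of a table. Under that assumption it bears on levels and not on changes between libraries. Lengths that differ between libraries were not tested.

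**Figure D1:**
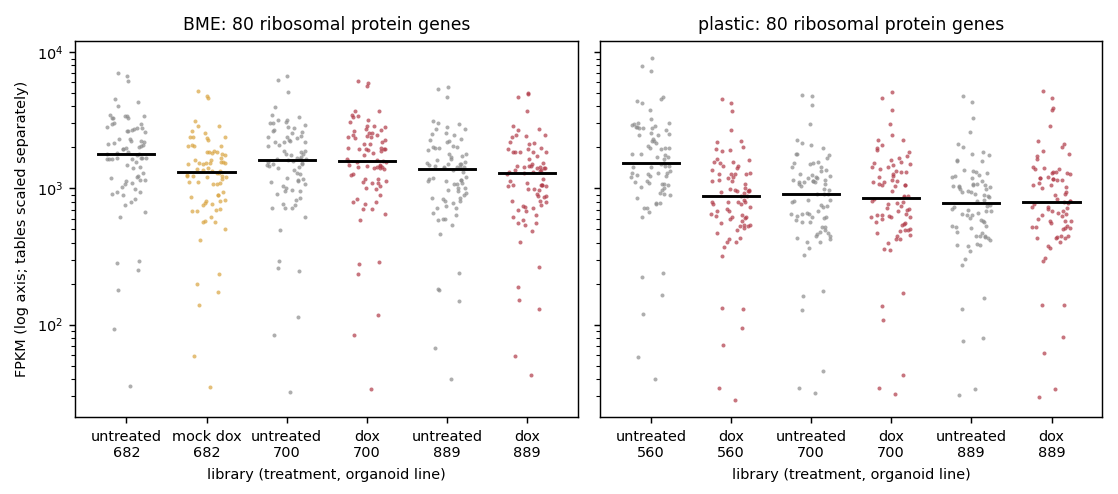
FPKM of the 80 ribosomal protein genes past the filter in each library, on a log axis, with untreated libraries in grey, dox in red and mock dox in yellow; each dot is 1 gene and the black bar is the median. The untreated library of line 560 on plastic has a median of 1525 FPKM while the other 5 plastic libraries lie between 783 and 908.

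The level of the whole family differed between libraries. In BME the median gene was at 1794 FPKM in untreated line 682 and 1323 in its mock partner, 1623 in untreated and 1602 in dox line 700, and 1387 in untreated and 1289 in dox line 889. On plastic it was at 1525 in untreated and 881 in dox line 560, 908 and 853 in line 700, and 783 and 793 in line 889. The untreated library of line 560 thus stood apart from the other 5 plastic libraries. Its short transcripts as a class were high and its long ones low, with the values given beside the length bins, and the part of RNA quality in this was not tested. The ribosomal protein genes took 21.4% of all FPKM in mock dox and 26.4% in untreated line 682, 22.8% in dox and 23.5% in untreated line 700, and 19.1% in dox and 21.2% in untreated line 889. On plastic the share was 16.1% in dox and 22.6% in untreated line 560, 13.5% and 15.2% in line 700, and 13.7% and 14.6% in line 889. The share of FPKM was lower in the treated library of every pair, the mock pair included, but the ranges of dox and control libraries overlapped in both environments. As a share of the rebuilt reads, where long transcripts weigh more, the family took 6.61% to 9.60% in BME and 4.44% to 9.42% on plastic. By that measure plastic line 889 went the other way, at 4.82% with dox and 4.62% untreated, and the other 5 pairs were lower in the treated library. In these bulk samples, fewer cells with much ribosomal protein mRNA and less of it per cell cannot be told apart.

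The dox change was then tested gene by gene with limma on log2(FPKM + 1), with p-values adjusted over all genes. The criterion for a call was a change beyond 1 in either direction with an adjusted p below 0.05. In BME no ribosomal protein gene was called, against 3 of 12996 genes in all (0.0231%), and none had an unadjusted p under 0.05, which 4.09% of all genes had. The fitted change was below 0 for 62 of the 80 genes, against 51% of all genes, with a median of -0.05 against -0.01 over all genes kept. On the TPM scale, in which each library sums to the same FPKM total, the median was -0.13 with 74 of 80 below 0, but all genes shifted too, to a median of -0.08 with 61.0% below 0. In limma-voom on rebuilt reads it was -0.12 with 74 of 80, against -0.08 and 60.5% over all genes. After removing the length trend it was -0.10 with 69 of 79, against -0.01 and 51.4% over all genes. The SE of these changes had a median of 0.234 in BME and 0.333 on plastic. On plastic none was called either, against 4 of 12333 genes (0.0324%), and none had an unadjusted p under 0.05, against 8.29%. There 79 of the 80 fitted changes were below 0, against 48.9% of all genes, and their median was -0.27 against 0.01. limma-voom on the rebuilt reads also called none, with 0 at an unadjusted p under 0.05. The lowest adjusted p of any ribosomal protein gene was 0.959 in BME and 0.723 on plastic in limma. In the fit with the organoid line as a block, since the lines pair the samples, no member was called (lowest adjusted p 0.764 in BME and 0.345 on plastic) and 1, Rpl22l1 on plastic, had an unadjusted p under 0.05 (0.0411 in limma), while over all genes the calls went from 3 to 0 in BME and from 4 to 7 on plastic.

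**Figure D2:**
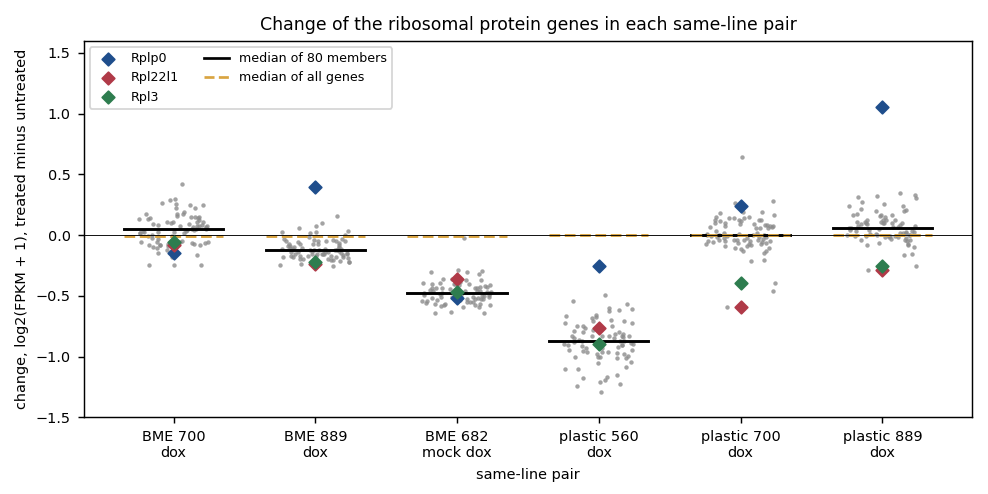
Change of each ribosomal protein gene in log2(FPKM + 1), treated minus untreated, in the 6 same-line pairs; grey dots are genes, black bars their medians, yellow dashes the medians of all genes kept, and diamonds mark Rplp0, Rpl22l1 and Rpl3. The medians run from -0.87 in plastic line 560 to 0.06 in plastic line 889.

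On the FPKM scale the near-uniform direction on plastic came from 1 pair, while on the TPM scale 79, 76 and 69 of the 80 genes were lower in plastic lines 560, 700 and 889, against 29.8%, 66.3% and 62.9% of all genes. The values that follow are on the FPKM scale. In line 560 all 80 genes were lower with dox, against 49.8% of all genes, with a median change of -0.87, or 0.547 times the untreated level. Of these, 18 were lower by more than 1 on the log2 scale, against 4.77% of all genes. In line 700 on plastic 39 of 80 were lower, against 50% of all genes, with a median change of 0.00. In line 889 on plastic 24 of 80 were lower, against 49%, with a median of 0.06. Without the untreated library of line 560, the fitted plastic change was below 0 for 24 of 80 genes and its median was 0.05. Without both libraries of line 560 these values were 32 of 80 and 0.03.

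The BME pairs differed in direction. In line 700, 29 of 80 genes were lower with dox, against 50.9% of all genes, with a median of 0.05. In line 889, 71 of 80 were lower, against 50.6%, with a median of -0.12. The 1 pair in BME in which the whole family was lower was the mock pair of line 682: all 80 genes were lower in the mock library, against 51.1% of all genes, with a median change of -0.47. The fitted BME median went to 0.15 without dox line 889, to -0.29 without dox line 700 and to 0.03 without untreated line 682. With the mock library counted as a dox library it was -0.18.

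The medians of large and small subunit genes lay within 0.05 of each other in each pair, and their difference was not tested. In plastic line 560 the median change was -0.90 for the large and -0.85 for the small subunit. In the mock pair it was -0.47 and -0.51, and in BME line 889 it was -0.13 and -0.11. In the other 3 pairs both medians lay between 0.00 and 0.07.

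Because these transcripts are short, the change of all other genes was laid out by length in 10 equal-sized bins. In the plastic pair of line 560 change rose with length over all genes: the Spearman rho was 0.51 with the longest annotated transcript and 0.54 with the effective length. This rho describes 2 libraries, since genes are not replicates and share their library and depth. Genes outside the family had a median change of -0.59 in the shortest effective-length bin and 0.67 in the longest. The 55 ribosomal protein genes of that shortest bin had a median of -0.90. Measured against the other genes of its own length bin, the median ribosomal protein gene was lower by a change of -0.34, and 78 of 80 were below their bin. In the mock pair rho was 0.31 with the effective length, and the shortest bin had a median of -0.11 and the longest 0.18. There the median ribosomal protein gene differed from its bin by -0.36, with 79 of 80 genes below it.

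The other 4 pairs showed flat or opposite trends. In plastic line 889 rho was -0.25, with a median of 0.19 in the shortest bin and -0.27 in the longest. There the median ribosomal protein gene differed from its bin by -0.09, with 63 of 80 genes below it. In BME line 889 rho was -0.18, and the difference from the bin was -0.15, with 74 of 80 genes below it. In BME line 700 and plastic line 700 rho was -0.08 and -0.09. The differences from the bin were 0.01 and -0.01, with 35 and 44 of 80 genes below it. Taken library by library, the untreated plastic library of line 560 was the extreme one: relative to the mean of the 6 plastic libraries, its shortest bin had a median deviation of 0.44, its longest bin one of -0.51 and the ribosomal protein genes one of 0.76. With the length trend removed from each library, the fitted plastic median was -0.18 and 77 genes were below 0.

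**Figure D3:**
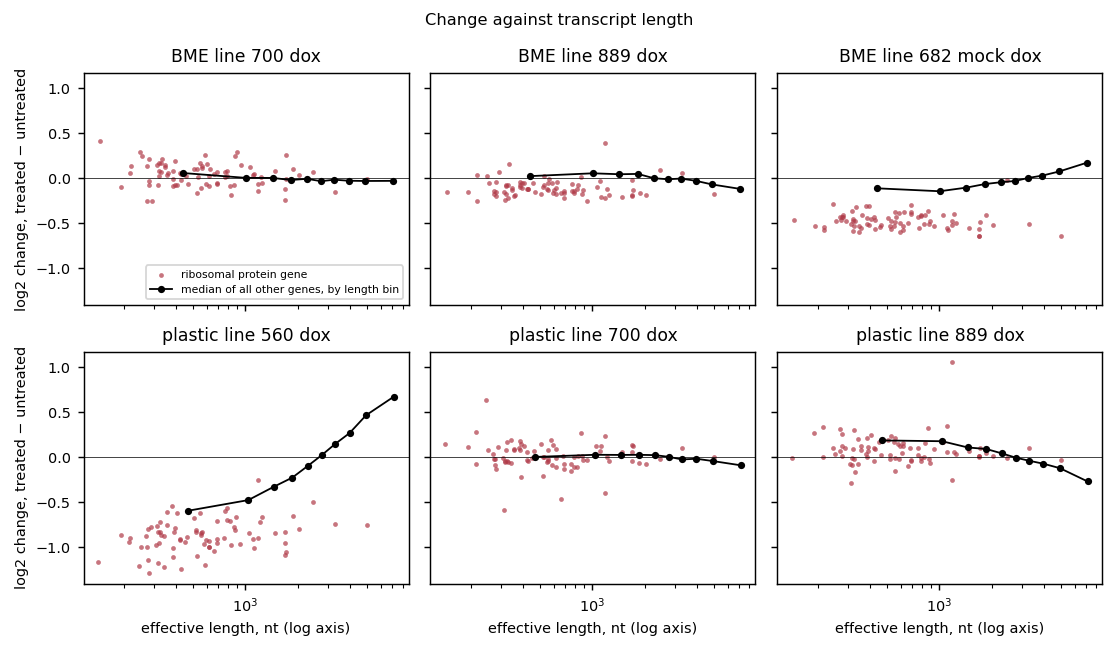
Change in log2(FPKM + 1), treated minus untreated, against the effective transcript length (log axis) in the 6 same-line pairs; red dots are the 80 ribosomal protein genes and the black line joins the medians of all other genes in 10 length bins. In plastic line 560 the line climbs from -0.59 to 0.67 and most red dots lie under it.

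The scale also mattered. On the TPM scale all genes shifted by a median of -0.07 and -0.05 in BME lines 700 and 889, and by 0.40, -0.19 and -0.21 in plastic lines 560, 700 and 889. On that scale the ribosomal protein medians were -0.02, -0.17, -0.46, -0.19 and -0.15 in the same order, beside medians of all genes of -0.07, -0.05, 0.35, -0.17 and -0.18. The count of lower genes in plastic lines 700 and 889 thereby rose from 39 and 24 to 76 and 69, while the family's median on that scale was within 0.03 of the median of all genes in both pairs. On the FPKM scale the family in plastic line 889 was at 0.06 against 0.01 for all genes.

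The stalk, which recruits the GTPase translation factors, included Rplp0, the gene furthest from the family in 3 of the 5 dox pairs. Rplp0, the base of the stalk, was at 3229 FPKM in untreated and 2702 in dox line 560 on plastic, at 2075 and 2449 in line 700, and at 1804 and 3744 in line 889. Dox organoids were thus higher in lines 700 and 889 and lower in line 560, and the groups overlapped. In plastic line 889 its partners Rplp1, Rplp2 and Rpl12 changed by 0.10, 0.02 and 0.03 while Rplp0 changed by 1.05, the only change over 1 among the 80 genes. This was also the pair in which Cd68 went from 2.70 to 38.7 FPKM. The other immune markers in that dox library were at 0 (Lyz2, Adgre1 and Cd3e), 0.0239 (Ptprc) and 0.220 (Cd79a). The part of other cell types in the Rplp0 change was not tested. Set against the median ribosomal protein gene of the same pair, Rplp0 was higher by 0.61, 0.24 and 0.99 in plastic lines 560, 700 and 889, and by 0.52 in BME line 889, but differed by -0.19 in BME line 700. Rplp1 lay on the same side of the median gene as Rplp0 in all 5 dox pairs, by 0.09, 0.11 and 0.04 in plastic lines 560, 700 and 889 and by -0.29 and 0.20 in BME lines 700 and 889. Rplp2 and Rpl12 did so in 2 of the 5 pairs each. In BME Rplp0 was at 3394 FPKM in untreated line 682, 2366 in mock dox, 3183 and 2884 in untreated and dox line 700, and 2828 and 3731 in untreated and dox line 889. Its fitted plastic change was 0.34 (SE 0.34, adjusted p = 0.845 in limma, 2 of 3 pairs higher), the only one of the 80 above 0 with all 6 libraries in the fit. This rested on untreated line 560, without which 24 of the 80 were below 0 and Rplp0 was at 0.59. Leaving out dox or untreated line 889 it was at 0.16 or 0.17. Rplp0 lies on chromosome 5 (NCBIM37, 116009476 to 116013736, plus strand), spans 7 exons in its longest transcript and had at least 42785 reads in each BME library, so counting error is small there.

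**Figure D4:**
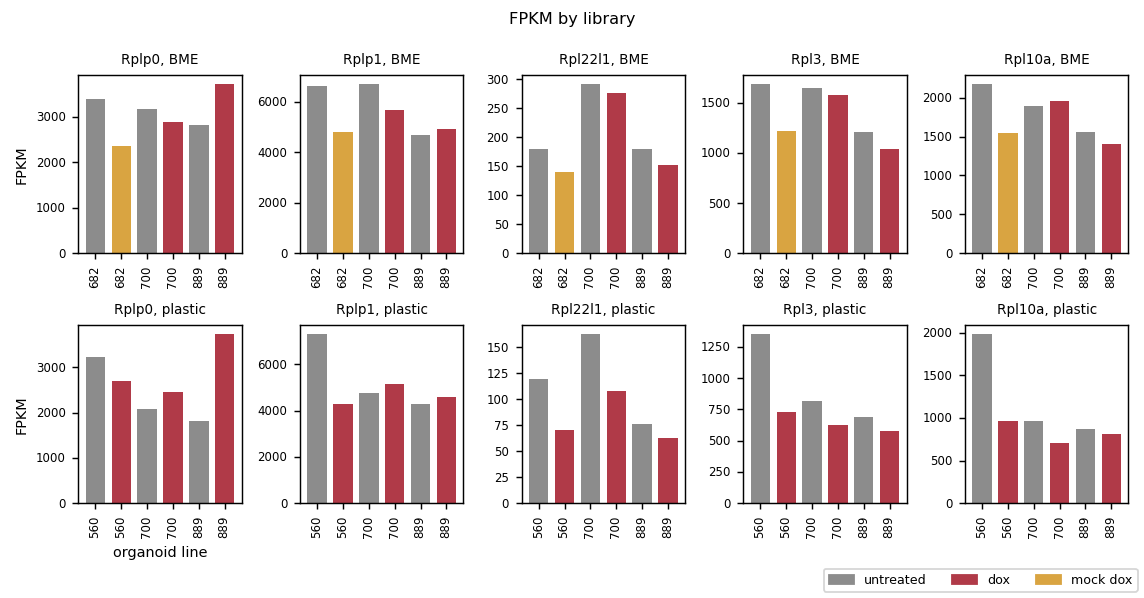
FPKM of Rplp0, Rplp1, Rpl22l1, Rpl3 and Rpl10a in each library, BME above and plastic below, with untreated bars in grey, dox in red and mock dox in yellow; no error bars are drawn because each bar is 1 library. Rplp0 reaches 3744 FPKM in dox line 889 on plastic against 1804 in its untreated partner, while Rpl22l1 and Rpl3 are lower with dox in each of the 3 plastic pairs.

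A lower level in all 5 dox pairs was found for 5 of the 80 genes, among them Rpl3, Rpl22l1, Rpl27 and Rpl37. A higher level in all 5 was found for none. Of the 11977 genes kept in both tables, 16.8% had 1 sign in all 5 pairs, so the count in the family is not above the background. Rpl3 is a core protein near the peptidyl transferase center. It was at 1354 and 726 FPKM in untreated and dox line 560 on plastic, 819 and 622 in line 700, and 688 and 575 in line 889. In BME it was at 1643 and 1576 in line 700 and 1208 and 1036 in line 889. It was lower with dox in each pair, but the plastic groups overlapped, and the fitted change was -0.52 (SE 0.31, adjusted p = 0.723 in limma) on plastic and -0.15 (SE 0.26, adjusted p = 0.967) in BME. The plastic change was -0.23 without untreated line 560 and -0.72 without untreated line 889, and lay between these in the other 4 fits that left out 1 library. It was also below the median ribosomal protein gene in all 5 dox pairs, as was Rpl37, while Rpl11 was above it in all 5. Only 4 of the 80 kept to 1 side of that median throughout, 3 below and 1 above. No share over all genes stands beside this count. Rpl27 and Rpl37 were the only 2 of the 80 whose 3 plastic dox libraries all lay below the 3 untreated ones, which 7.26% of all genes kept did, and none of the 80 lay wholly above (7.87%). In BME none of the 80 lay wholly below (5.83%) or wholly above (6.33%) the controls. Their changes in plastic lines 700 and 889 were -0.02 and -0.01 for Rpl27 and -0.07 and -0.03 for Rpl37.

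Among the lowest fitted changes on plastic were those of Rpl22l1, Rpl10a, Rpl3 and Rpl28, between -0.55 and -0.43. Without untreated line 560 they were at -0.51, -0.16, -0.23 and -0.09 in that order. Rpl10a, which binds near the E site, was at 1987 and 965 FPKM in untreated and dox line 560, 969 and 703 in line 700 and 872 and 814 in line 889. It was lower in 3 of 3 plastic pairs, with a fitted change of -0.53 (SE 0.37, adjusted p = 0.771 in limma), which was -0.76 without untreated line 889. Rpl28 was lower in 3 of 3 plastic pairs as well, but by -0.05 and -0.08 in lines 700 and 889.

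Rpl22l1 is a divergent copy of Rpl22, which is known to repress it. On plastic Rpl22l1 was at 120 and 70.3 FPKM in untreated and dox line 560, 163 and 108 in line 700, and 76.4 and 62.4 in line 889. The pair changes were -0.76, -0.59 and -0.29, and in lines 700 and 889 it was the gene of the family with the lowest change. The fitted plastic change was -0.55 (SE 0.35, adjusted p = 0.745 in limma), and it was -0.29 without untreated line 700 and -0.83 without untreated line 889. With the line as a block its adjusted p was 0.345 in limma. In BME it was at 293 and 277 in line 700 and 180 and 152 in line 889, lower with dox in both pairs, yet its fitted BME change was 0.11 (SE 0.36, adjusted p = 0.985 in limma). The BME controls include line 682, where it was at 180 untreated and 140 with mock dox. With the line as a block the BME change was -0.16.

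The ratio of Rpl22l1 to Rpl22 set line 700 apart. In line 700 it was 2.57 untreated and 2.37 with dox in BME, and 3.60 and 2.51 on plastic. In line 889 it was 1.21 and 1.16 in BME and 0.958 and 0.772 on plastic. In line 682 it was 0.718 untreated and 0.801 with mock dox, and in line 560 it was 0.723 and 0.739. The 4 libraries of line 700 were thus above the other 8 in this ratio. Within BME line 682 lay below line 889, and on plastic line 560 lay below line 889, with no overlap in either, while lines 560 and 682 were not grown in the same environment. Rpl22 itself was at 114 and 117 FPKM in line 700 in BME, and at 131 to 251 in the other 4 BME libraries.

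Other members marked the lines more strongly than they marked dox. These were picked after their values were seen, as the genes whose level relative to the median ribosomal protein gene varied most. In BME, Rps18, a head protein of the small subunit, was at 1145 and 1061 FPKM in untreated and dox line 889 but at 2055 to 2962 in the other 4 libraries. On plastic it was at 654 to 688 in line 889, 794 and 1454 in dox and untreated line 560, and 1316 and 1378 in line 700. Relative to the median gene it stood at 0.823 to 0.953 in lines 889 and 560 and at 1.502 to 1.66 in lines 682 and 700, with no overlap. Rpl30 showed the reverse, at 0.688 to 1.10 in lines 889 and 560 and 0.374 to 0.530 in lines 682 and 700. These 2 genes appear among the largest BME changes of the limma fit (Rps18 -0.27, Rpl30 0.16), but within lines 700 and 889 Rps18 changed by 0.13 and -0.11 and Rpl30 by 0.06 and -0.19.

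Rpl34 split in the same way, and here a second gene could be read beside it. Rpl34, a large subunit protein, was at 562 and 590 FPKM in dox and untreated line 889 in BME against 1124 to 1687 in lines 682 and 700. Rpl34-ps1, a copy that the family rule leaves out by its name, was at 564 and 608 FPKM in line 889 in BME, and at 0.615 to 1.59 in lines 682 and 700. On plastic Rpl34-ps1 was at 318 and 619 in dox and untreated line 560, 305 and 257 in line 889, and 0.893 and 0.623 in line 700. Rpl34 in the same 6 libraries was at 318, 617, 294, 276, 601 and 569. In lines 560 and 889 the 2 genes were therefore at nearly equal levels. Their sum was 0.850 to 0.941 of the median ribosomal protein gene in all 6 BME libraries, where Rpl34 alone ranged from 0.425 to 0.940. On plastic the sum was 0.628 to 0.810 and Rpl34 alone 0.352 to 0.704.

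The 2 sequences are shown because they differ so little. Rpl34 (ENSMUSG00000062006.6) lies on chromosome 3 at 130429749 to 130433316, minus strand, and Rpl34-ps1 (ENSMUSG00000068396.7) on chromosome 6 at 71074583 to 71074994, plus strand, in NCBIM37 (mm9), where it is annotated as a pseudogene. Over the 354 coding nt of Rpl34 the copy differs at 2 positions, T132C and C318G, counted from 1 at the start codon, so that 99.4% of bases are equal. The longest stretch without a difference is 185 nt. The windows of 29 bases around the 2 positions, with the differing base in capitals, are as follows.
Rpl34, coding positions 118 to 146: aaagcacctaaatcTgcatgtggcgtgtg
Rpl34-ps1, chr6:71074721-71074749: aaagcacctaaatcCgcatgtggcgtgtg
Rpl34, coding positions 304 to 332: atcgttgtgaaagtCttgaaggcacaagc
Rpl34-ps1, chr6:71074907-71074935: atcgttgtgaaagtGttgaaggcacaagc
Coding reads without either position cannot be assigned to 1 of the 2, and the untranslated parts were not compared, so the level of Rpl34 alone is uncertain in lines 889 and 560. What sets these lines apart was not tested.

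**Figure D5:**
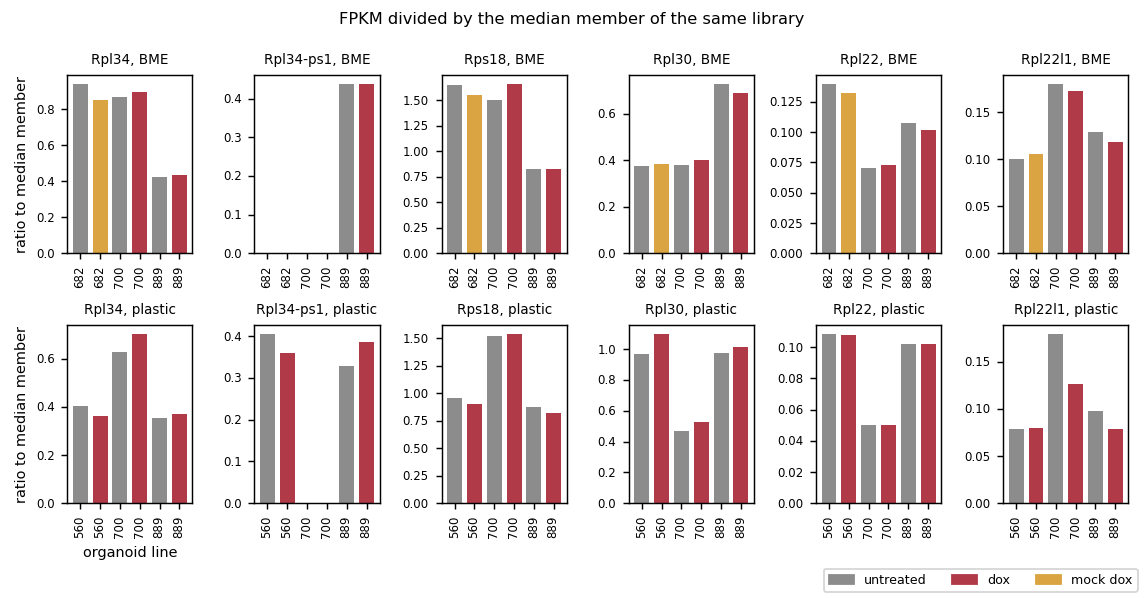
FPKM divided by that of the median ribosomal protein gene in the same library, for Rpl34, Rpl34-ps1, Rps18, Rpl30, Rpl22 and Rpl22l1, BME above and plastic below, with untreated bars in grey, dox in red and mock dox in yellow; each bar is 1 library. Rpl34-ps1 is seen in lines 889 and 560, the lines in which Rpl34 and Rps18 are low, and Rpl22 is lowest in line 700.

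Members of other roles were read in the same way. Over the whole family, 80, 39 and 24 of 80 genes were lower in plastic lines 560, 700 and 889. In BME 29 and 71 were lower in lines 700 and 889. Of all genes kept, between 49.0% and 50.9% were lower in each of these pairs. Rpl5 and Rpl11, which carry the 5S rRNA and bind MDM2 when free, changed by -0.66 and -0.85 in plastic line 560, -0.06 and 0.12 in line 700, and 0.05 and 0.17 in line 889. In BME both were higher in line 700 and lower in line 889, with medians of 0.12 and -0.12. Of the 7 proteins that line or border the exit tunnel (Rpl4, Rpl17, Rpl39, Rpl19, Rpl23a, Rpl31 and Rpl35), all 7 were lower in plastic line 560 with a median of -0.92, and 2 and 1 were lower in plastic lines 700 and 889. In BME all 7 were lower in line 889 with a median of -0.12, and 2 were lower in line 700, where the median was 0.16. Rpsa and Rps29 were among the 5 lowest fitted changes in BME, at -0.24 (SE 0.29, adjusted p = 0.963 in limma) and -0.25 (SE 0.21, adjusted p = 0.959), and both were lower in 2 of 2 BME dox pairs. Without dox line 889 these fitted changes were 0.01 and -0.12, and without dox line 700 they were -0.50 and -0.39. In BME line 700, where the median gene was at 0.05, Rpsa and Rps29 changed by -0.24 and -0.25, and Rps29 was the lowest of the 80. Rpsa, also known as the laminin receptor, was at 2602 and 2197 FPKM in untreated and dox line 700 in BME. In line 889 it was at 1739 and 1535. On plastic Rpsa changed by -1.09, 0.06 and 0.00 in lines 560, 700 and 889, where the median gene was at -0.87, 0.00 and 0.06. Rps6, the target of the S6 kinases, and Rps27a, which is made as a fusion with ubiquitin, changed by -0.72 and -0.63 in plastic line 560 and by between -0.05 and 0.16 in the other plastic pairs. In BME they changed by between 0.02 and 0.17 in line 700 and by -0.12 and -0.11 in line 889. The 9 genes mutated in Diamond-Blackfan anemia on the list used here, among them Rps19, Rps26 and Rpl35a, had a median of -0.79 in plastic line 560 and of 0.06 and 0.07 in lines 700 and 889. In BME all 9 were lower in line 889 with a median of -0.15, and 3 were lower in line 700, where the median was 0.07.

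The difference of the dox change between plastic and BME was fitted as an interaction over 11977 genes. No ribosomal protein gene was called, as was no gene in all (0%), and none had an unadjusted p under 0.05 in limma, against 303 genes (2.53%) in all. The fitted difference was below 0 for 75 of 80 genes, against 48.6% of all genes, with a median of -0.19. With lines 700 and 889 alone, which were grown in both environments, 21 of 80 were below 0 and the median was 0.07. Without the untreated plastic library of line 560 it was 14 of 80 and 0.12.

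Start sites were compared because the 5′ pyrimidine run is the shared feature of these mRNAs. RefSeq promoter windows (GRCm38.p6) were found for 64 of the 85 genes. At the annotated start a C followed by 4 bases that are each C or T was found in 14 of the 64 (21.9%), against 3.01% of 27025 genes with a window. A run of at least 6 C or T bases touching the 5 bases on either side of the start was found in 33 of the 64 (51.6%), against 23.0% of all. Only the strand of the gene was read, and the second measure includes sites of the first. Windows from 20 bases before to 10 bases after the start are shown for members of both subunits with and without such a run, with a run of at least 6 in capitals.
Rps6, chr4:86857358-86857387, minus strand: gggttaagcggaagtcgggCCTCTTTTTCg
Rps27, chr3:90213639-90213668, minus strand: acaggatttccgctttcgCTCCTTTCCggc
Rps18, chr17:33955656-33955685, minus strand: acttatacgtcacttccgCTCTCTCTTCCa
Rpl22l1, chr3:28805488-28805517, plus strand: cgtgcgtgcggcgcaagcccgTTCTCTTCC
Rplp0, chr5:115559447-115559476, plus strand: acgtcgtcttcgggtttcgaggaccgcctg
Rpl37, chr15:5116593-5116622, plus strand: gaagtagtttcctgggcggaagcttatcca
Rps6, Rps27 and Rps18 start inside such a run, while Rplp0 and Rpl37 have none at the annotated start, which may differ from the start used in these organoids. The medians of members with (n = 13) and without (n = 47) the C start were -0.87 and -0.85 in plastic line 560, -0.02 and 0.00 in plastic line 700, and 0.02 and 0.06 in plastic line 889. In BME they were 0.07 and 0.04 in line 700, -0.14 and -0.12 in line 889, and -0.48 and -0.47 in the mock pair. The medians differed by less than 0.04 in each of the 6 pairs, in both directions, and the difference was not tested.

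Genes of the same machinery were read beside the family from lists. Of 19 translation factors and other mRNAs of the pyrimidine class, none passed the adjusted p of 0.05 in either fit. Their median change was -0.46 in plastic line 560 with 16 of 19 lower, and -0.12 and -0.06 in plastic lines 700 and 889 with 15 and 12 lower. In BME lines 700 and 889 it was -0.03 and -0.09, with 11 and 17 lower. In the mock pair all 19 were lower with a median of -0.38, as were all 80 ribosomal protein genes, against 51.1% of all genes. The 6 regulators Myc, Mtor, Rptor, Larp1, Rps6kb1 and Eif4ebp1 had medians of 0.19, -0.16 and -0.35 in plastic lines 560, 700 and 889. In BME lines 700 and 889 their medians were -0.05 and -0.06. Myc itself was lower with dox in all 5 pairs, by between -0.01 in plastic line 560 and -0.56 in BME line 700. In BME line 889 its change was -0.05. Larp1 was lower in all 5 as well, while Mtor, Rptor, Rps6kb1 and Eif4ebp1 went both ways. Over all genes kept in both tables, 16.8% had 1 sign in all 5 pairs. The 5 proliferation genes had medians of -1.08 and -0.14 in BME lines 700 and 889 and of -0.20, -1.35 and -1.64 in plastic lines 560, 700 and 889. The ribosomal protein medians in the same order were 0.05, -0.12, -0.87, 0.00 and 0.06 on the FPKM scale and -0.02, -0.17, -0.46, -0.19 and -0.15 on the TPM scale, and with 5 pairs no relation was tested.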

How the data were processed

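RNA-Seq of 12 libraries was analysed. Per the labels, RNA was extracted with Trizol and the RNeasy kit and libraries were made by BGI. The submitters' processing notes name kallisto, DESeq2, DESeq and mm9; versions and parameters are not given in the sources used here. The authors deposited FPKM in 1 table for BME and 1 for plastic, each scaled separately by DESeq2-type size factors. The authors' mean normalized count (deposited as 1 signal value per gene over 6 libraries) was used only to rebuild reads (14530986 to 21065831 per library, 89.0% to 91.1% of low values whole within 0.1) and effective lengths; the authors' fold changes and p-values were not used. Levels of kallisto FPKM depend on how reads of near-identical copies are split.

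Changes were tested with limma 3.58.1 (R 4.3.3, two-sided, trend) on log2(FPKM + 1) for genes whose mean FPKM reached 0.5, with Benjamini-Hochberg adjustment. The fit was tested on simulated data with independent noise, no line effect and added changes larger than those fitted in the family. It therefore does not measure power for changes of the size seen here. The pseudocount understates the change of low genes. Organoid lines pair the samples: deviations of same-line libraries correlated at 0.61 and 0.66 in BME (lines 700 and 889) and at 0.46, 0.61 and 0.25 on plastic (lines 560, 700 and 889). Coordinates are NCBIM37 with GENCODE models, matched for 83 of 85 genes; promoters are RefSeq, GRCm38.p6. Genes were named by level, fitted change, constancy of sign over the 5 dox pairs and role lists. Values of 1 member are not reported here. Members and lists were chosen with earlier results of these data known. Alternatives were the line block, pseudocount, filter, scale, length adjustment, limma-voom on rebuilt reads, the mock library's group and leaving out each library; leaving out line 560 or 682, adjustment by effective length and scaling to the members' median were added after seeing the data. Organoids of 1 line in 2 groups are 1 culture source, so p-values measure the spread between these libraries.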

Additional observations from a re-analysis of the deposited data

Results flagged for a closer look

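Of the 80 ribosomal protein genes, 2 (Rps27l and Rpl7l1) changed one way in both BME dox pairs and the other way in all 3 plastic dox pairs, as did 583 of 11977 genes in all (4.87%), so the count is not above the background. The difference was not tested beyond the interaction fit. Rps27l was at 247 and 288 FPKM in untreated and dox line 700 and 239 and 267 in line 889 in BME, changes of 0.22 and 0.16. On plastic it was at 238 and 130 in line 560, 177 and 170 in line 700 and 158 and 140 in line 889, changes of -0.87, -0.06 and -0.17. The mean pair change on plastic minus that in BME was -0.55, and the interaction was -0.49 (SE 0.27, adjusted p = 1.00 in limma). Rpl7l1 changed by 0.08 and 0.10 in BME and by -0.49, -0.02 and -0.01 on plastic, a difference of -0.26. In the mock pair Rps27l changed by -0.32.
Among the 4 BME control libraries, 15 values were examined for 1 library far from the others, and 0 passed the threshold, which chance would pass about 1 time in 20.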

How the results depend on the processing

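No ribosomal protein gene was called under any of the settings run, in either environment or for their difference. In BME the median fitted change was -0.13 on the TPM scale and with the mock library left out, -0.12 in limma-voom, -0.10 with the length trend removed and -0.18 with the mock library as dox, and leaving out each library it ranged from -0.29 to 0.15, with 10 to 75 of 80 genes below 0 (26 without untreated line 682). On plastic 32 genes were below 0 without line 560, and 24 to 79 leaving out each library, with medians from -0.46 to 0.05. The difference between environments had 21 genes below 0 with lines 700 and 889 alone and 14 to 79 leaving out each library (34 without dox line 700 in BME). The median of the mock pair was -0.30 on the TPM scale and -0.34 with the length trend removed. With the line as a block, the BME changes of Rpl22l1, Rpl30 and Rps18 turned to -0.16, -0.0659 and 0.0091, as they did without line 682. Rpl22l1 was at -0.0425 with the mock library left out and at -0.23 with it as dox, where Rpl30 was at -0.18 and Rplp0 at -0.0877. Leaving out each BME library, these changes ranged from -0.32 to 0.54 for Rpl22l1, -0.0752 to 0.39 for Rpl30 and -0.0162 to 0.36 for Rplp0. They ranged from -0.068 to 0.27 for Rpl7l1, -0.99 to 0.36 for Rpl34 and -0.94 to 0.39 for Rps18. For Rps29 and Rpsa they ranged from -0.39 to -0.12 and from -0.50 to 0.0144. On plastic they ranged from 0.16 to 0.59 for Rplp0, -0.83 to -0.29 for Rpl22l1, -0.76 to -0.16 for Rpl10a, -0.72 to -0.23 for Rpl3 and -0.64 to -0.09 for Rpl28. The line block changed no call of a member. The cause of these shifts was not tested. With 2 or 3 dox libraries the SE of a member's change had a median of 0.234 in BME and 0.333 on plastic, and a missed threshold does not show equal levels.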
